A study of Mus musculus with 6 samples.

Results

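The network of MYC, MAX and MXD transcription factors was followed through 10 genes, Myc, Mycn, Max, Mxd1, Mxd3, Mxd4, Mxi1, Mnt, Mga and Mlx, out of 18194 genes measured on the array. The members were taken by symbol, as every probe set annotated to 1 of these names alone, which gave 26 of 45101 probe sets. The samples were 3 arrays labelled Runx1-KO and 3 labelled Control, each from an independent mouse leukemia of the C57BL/6 strain. Every leukemia, Control included, had been started by transducing bone marrow with MLL-ENL, an oncogene that joins MLL, a histone methyltransferase, to the elongation factor ENL, and by transplanting it into congenic mice. The marrow carried an excised Runx1 gene in the group labelled Runx1-KO and an intact one in Control. Leukemic cells were collected when the recipients were moribund, and the labels give neither the age of the mice, nor the tool of excision, nor a sort that would have removed cells of the host.

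MYC and MYCN are transcription factors of the basic helix-loop-helix leucine zipper class that drive growth and division. They bind DNA as a pair with MAX, at a short motif called the E-box. The MXD proteins, MXI1 (also known as MXD2), MNT and MGA compete for the same partner and the same motif. MXD proteins, MXI1 and MNT bring the SIN3 and histone deacetylase corepressors to DNA, and MGA belongs to a Polycomb complex. MLX is a second partner protein, which pairs with the glucose sensors MondoA and ChREBP as well as with some MXD proteins and MNT. In blood cells MYC is high in dividing progenitors, and MXD1 is a classic gene of terminal myeloid differentiation. MYC is needed by MLL-fusion leukemias in mouse models.

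Promoter windows of 9 of the 10 members were found in the RefSeq-derived table (build GRCm38.p6), and Myc was not among them. The 250 bases before each listed start were searched on both strands for CACGTG, the E-box shared by MYC-MAX and MXD-MAX pairs, and for TGTGGT or TGCGGT, the core that RUNX proteins bind. No member window held both motifs, and a match is a description of letters, not a binding site. The 9 genes had 11 windows, 3 of them for Mxi1. CACGTG stood in 3 of the 11, those of Mxd4, Mnt and Mlx, against 6.02% of 32851 windows in the whole table. A RUNX core stood in 1 of the 11, that of Max, against 18.6% of all windows. The windows of Mxd1, the member with the largest difference between the groups, and of Mxd4 are shown whole, and the other 3 matches with 12 bases on either side. Capitals mark the motif.
Mxd1, chr6:86669160-86669409, minus strand, no match: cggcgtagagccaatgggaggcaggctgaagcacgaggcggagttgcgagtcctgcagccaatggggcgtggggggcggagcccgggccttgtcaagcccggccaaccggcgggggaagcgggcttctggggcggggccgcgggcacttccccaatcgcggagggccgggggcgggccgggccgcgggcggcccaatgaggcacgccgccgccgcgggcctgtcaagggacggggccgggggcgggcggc
Mxd4, chr5:34187711-34187960, minus strand, E-box 219 bases before the start: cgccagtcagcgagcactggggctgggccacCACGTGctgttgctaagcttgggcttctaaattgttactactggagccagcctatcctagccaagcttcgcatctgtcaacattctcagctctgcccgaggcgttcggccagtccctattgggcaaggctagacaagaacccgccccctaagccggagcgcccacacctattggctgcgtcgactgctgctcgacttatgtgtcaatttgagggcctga
Mnt, chr11:74830789-74830818, plus strand, E-box 123 bases before the start: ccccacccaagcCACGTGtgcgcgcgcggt
Mlx, chr11:101087238-101087267, plus strand, E-box 40 bases before the start: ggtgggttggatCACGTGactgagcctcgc
Max, chr12:76962337-76962366, minus strand, RUNX core 106 bases before the start: gcgaagcctgtgTGCGGTtcctgatgggat

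Values were probe set intensities on a linear scale. A background limit of 14.1 to 22.5 per array was taken from spike-in probe sets without target. Of the 26 member probe sets, 19 lay above it on all 6 arrays, 2 on some and 5 on none. Runx1 itself, by its brightest probe set, stood at 1128, 1573 and 1629.5 in the arrays labelled Runx1-KO, against 680.3, 1021 and 850.0 in Control. The signal of that probe set was thus not lower in the arrays labelled Runx1-KO. The sources used here do not say whether its probes lie in the excised part, so the signal does not tell whether the gene was lost. Xist was at 1624 to 1895 in the arrays labelled Runx1-KO and at 25.3 to 331 in Control, and the Y-linked genes Eif2s3y and Kdm5d lay above background in every Control array and in none labelled Runx1-KO, so sex and genotype cannot be told apart. Gapdh signal from 3' over 5' probe sets, a measure of RNA degradation, had a ratio of 7.10 in Runx1-KO 1 and of 2.67 to 3.02 elsewhere. The summed intensity of 11 erythroid markers was 6969 in Control 1 and 97.4 to 267 elsewhere. None of the 6 measured primary granule markers of myeloid precursors was below background on all arrays. Nothing in the labels says that replicates shared more than a genotype, and p-values measure the spread between these leukemias. With bulk RNA, fewer cells of a type and less RNA per cell cannot be told apart, and the number of arrays limits the precision.

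Across the network, Mxd1 had the largest positive difference and Myc the largest negative one, and neither passed the test. One probe set per gene, the brightest, entered a limma fit over all genes, two-sided, with Benjamini-Hochberg adjustment. Of the 10 members, 0 had an adjusted p under 0.05, where 0.0879% of all genes did. At an unadjusted p under 0.05 there was 1 of 10 members, Mxd1, against 12.6% of all genes (5.62% with a positive and 7.01% with a negative difference). The groups did not overlap for 2 of 10 members, against 20.9% of all genes. These were Mxd1 on the higher side (9.17% of all genes) and Mga on the lower side (11.7%), so the shares were near the background. Log2 differences were taken as Runx1-KO minus Control throughout. They were above 0 for 6 members and below 0 for 4, with a median of 0.14, against -0.01 over all genes.

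**Figure D1:**
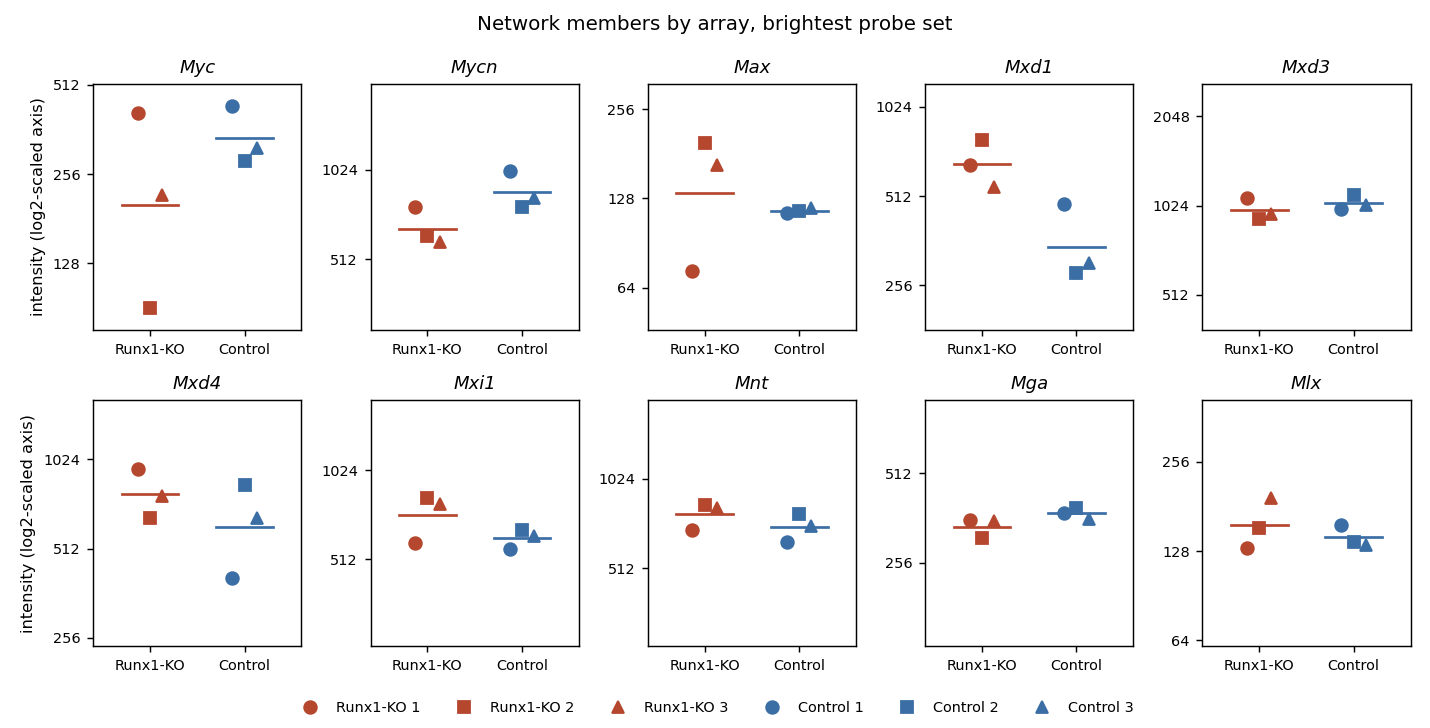
Intensity of each member's brightest probe set (vertical axis, log2-scaled, arbitrary intensity units, the same fold range in each panel) in the 3 arrays labelled Runx1-KO and the 3 Control arrays; each point is an array and each line a geometric mean. The Mxd1 points of the arrays labelled Runx1-KO, from 548 to 789, all lie above the Control points, from 282 to 481, while Myc spreads from 90.8 to 412 among the arrays labelled Runx1-KO.

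Myc, the central activator, varied more among the arrays labelled Runx1-KO than between the groups. Its only probe set, 1424942_a_at, had intensities of 412, 90.8 and 217 in Runx1-KO 1, 2 and 3, against 434, 284 and 313 in Control 1, 2 and 3. Runx1-KO 2 was the lowest of the 6 arrays and Runx1-KO 1 lay within the Control range, so the groups overlapped. The log2 difference was -0.75 ± 0.55 (SE, n = 3 per group; limma adjusted p = 0.611), with a 95% confidence interval of -2.08 to 0.59. The SD of the log2 level was 1.10 among the arrays labelled Runx1-KO and 0.32 among Control. The difference rested on 1 array, being -0.18 without Runx1-KO 2 and -1.27 without Runx1-KO 1.

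The array with the lowest Myc also had the lowest signal of mitotic genes. Summed over 15 measured genes of the G2 and M phases of the cell cycle, the intensity was 10098, 6570.4 and 10104 in Runx1-KO 1, 2 and 3, against 13249, 12623 and 12335.5 in Control 1, 2 and 3. All 15 had a negative difference, and 12 of them, or 80%, had groups that did not overlap, against 11.7% of all genes on that side. By limma 0 had an adjusted p under 0.05 and 7 an unadjusted one, or 46.7%, against 7.01% of all genes on that side. The other arrays did not share the order of Myc, as Runx1-KO 1, with Myc at 412, had a lower sum than Control 2, with Myc at 284. The part of these genes in the Myc values was not tested. Fbxw7, which encodes the ubiquitin ligase subunit that marks MYC protein for destruction, stood at 256, 691 and 253 in Runx1-KO 1, 2 and 3, against 203, 220.3 and 232 in Control 1, 2 and 3. It was picked out after its values were seen, and its log2 difference was 0.70 ± 0.42 (limma adjusted p = 0.531). Runx1-KO 2 held the highest Fbxw7 and the lowest Myc signal of the 6 arrays. In Runx1-KO 1 and 3 Fbxw7 was nearly equal, while Myc stood at 412 and 217. Both signals are RNA, MYC protein was not measured, and a link between the 2 genes was not tested.

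Mycn, the paralogue best known from neural tumours, had 3 probe sets, of which 1 was above background. That probe set, 1425923_at, had 767, 613 and 584 intensity units in the arrays labelled Runx1-KO, against 1013, 765 and 824 in Control. Runx1-KO 1 lay just above the lowest Control array, and the other 2 lay below all Control arrays. The log2 difference was -0.41 ± 0.21 (limma adjusted p = 0.478, 95% confidence interval -0.92 to 0.11). The other 2 Mycn probe sets were below background on all 6 arrays, so the signal of this gene rested on a single probe set. With the log2 values of all 3 averaged, dim ones included, the difference was 0.21.

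Max, the obligate partner of MYC and of the MXD proteins, was even in Control and uneven in the arrays labelled Runx1-KO. Its only probe set had intensities of 73.0, 197 and 166 in Runx1-KO 1, 2 and 3, against 115, 116 and 119 in Control. The arrays labelled Runx1-KO thus lay on both sides of Control, with a log2 SD of 0.77 against 0.02. Runx1-KO 1, the array with the Gapdh ratio of 7.10, was the lowest, and whether RNA quality had a part in it was not tested. The log2 difference was 0.20 ± 0.39 (limma adjusted p = 0.865), and it was 0.63 without Runx1-KO 1, -0.08 without Runx1-KO 2 and 0.04 without Runx1-KO 3.

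Mxd1, which encodes the MAX-binding repressor known from maturing myeloid cells, was higher in every array labelled Runx1-KO than in any Control array. Its brightest probe set, 1434830_at, had intensities of 653, 789 and 548 in Runx1-KO 1, 2 and 3, against 481, 282 and 305 in Control 1, 2 and 3. The nearest arrays were Runx1-KO 3 and Control 1. The difference was 0.92 ± 0.28 on the log2 scale, or 1.90-fold, with a 95% confidence interval of 1.19-fold to 3.03-fold and n = 3 per group. It did not pass over all genes (limma adjusted p = 0.298). By exact permutation of the 6 arrays, two-sided, p was 0.1, and no smaller p is possible with 3 arrays in each group.

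The 3 probe sets of Mxd1 were all higher on average in the arrays labelled Runx1-KO. Probe set 1422002_at had 66.0, 117 and 62.3 intensity units in the arrays labelled Runx1-KO, against 59.6, 28.7 and 28.4 in Control, without overlap. For 1455104_at the values were 219, 600.4 and 332 in the arrays labelled Runx1-KO, against 265, 154 and 183 in Control, and Runx1-KO 1 lay below Control 1. Their log2 differences were 1.10 ± 0.41 and 0.85 ± 0.42, with limma adjusted p = 0.397 and 0.503 over all probe sets. Runx1-KO 2 was the highest array and Control 1 the highest Control array on all 3. Probe sets of a gene share its RNA and are not independent measurements.

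Mature neutrophil markers had the same order of groups as Mxd1. Their summed intensity over 16 measured genes ranged from 23831 to 27316 in the arrays labelled Runx1-KO and from 11560.4 to 20233 in Control, where Control 1 was the highest, as it was for Mxd1. Among the arrays labelled Runx1-KO the orders differed, as the sum was highest in Runx1-KO 1 and Mxd1 in Runx1-KO 2. All 16 genes had a positive log2 difference, with a median of 1.15, none were below background on all arrays, and 10, or 62.5%, had groups that did not overlap, against 9.17% of all genes on that side. By limma 0 had an adjusted p under 0.05 and 9 an unadjusted one, or 56.25%, against 5.62% of all genes on that side. Monocyte and macrophage markers ran the other way, at 4488 to 4947 in the arrays labelled Runx1-KO and 6796 to 9638 in Control over 14 measured genes, of which 12 had a negative difference and 1, C1qa, was below background everywhere. In 8 of the 14, or 57.1%, the groups did not overlap, all with a negative difference, against 11.7% of all genes on that side. By limma 0 passed after adjustment, and 9, or 64.3%, had an unadjusted p under 0.05, against 7.01% of all genes on that side. Megakaryocyte and platelet markers had the same order of groups as Mxd1, with sums of 823 to 1307 in the arrays labelled Runx1-KO and 482 to 731 in Control, and 8 of 9 had a positive difference. Within the groups the order was not that of Mxd1, as Runx1-KO 1 had the highest sum and Control 1 the lowest. The groups did not overlap in 3, or 33.3%, against 9.17% of all genes on that side. Of 10 measured T and NK cell markers 9 had a negative difference. The groups did not overlap in 7, or 70%, against 11.7% of all genes on that side. An unadjusted p under 0.05 (limma) was found for 7, against 7.01% of all genes on that side. The sums of this list, 356 to 717 in the arrays labelled Runx1-KO and 496 to 580.4 in Control, overlapped, and Ncr1 and Gata3 were below background everywhere. The part of any of these lists in the Mxd1 values was not tested. Earlier results on these data already showed the neutrophil and monocyte lists, so they are no independent support.

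**Figure D2:**
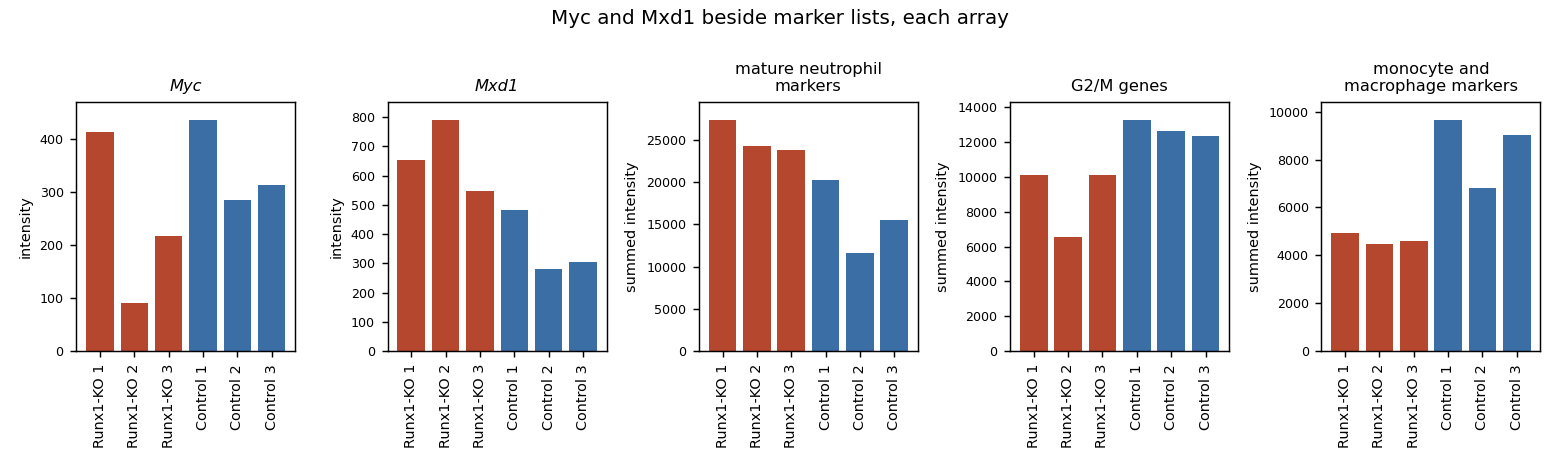
Bars give, for each of the 6 arrays, the intensity of Myc and Mxd1 (brightest probe set) and the summed intensity of mature neutrophil, G2/M, and monocyte and macrophage markers, on linear axes from 0 in arbitrary intensity units; arrays labelled Runx1-KO are red and Control arrays blue. Runx1-KO 2 has the lowest Myc (90.8), the highest Mxd1 (789) and the lowest G2/M sum (6570.4).

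The other repressors of the MXD family had smaller differences than Mxd1, and a test between genes was not made. Mxi1 had intensities of 582, 825 and 786 in Runx1-KO 1, 2 and 3, against 556, 645 and 614 in Control. Runx1-KO 2 and 3 were above all Control arrays and Runx1-KO 1 was not, and both of its probe sets had a positive difference. The brighter one gave 0.26 ± 0.21 (limma adjusted p = 0.647), and 0.16 without Runx1-KO 2 or 0.41 without Runx1-KO 1. Mxd4, whose product like MXD1 is linked with cells leaving the cycle, had 952, 651 and 768 intensity units in the arrays labelled Runx1-KO, against 408, 840.0 and 648 in Control. Control 1, the array with the erythroid signal, was the lowest of the 6, and the difference of 0.37 ± 0.32 (adjusted p = 0.674) became 0.08 without it. Of 4 Mxd4 probe sets 2 had a positive and 2 a negative difference, and 1 was below background throughout.

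Mxd3, the family member known to be expressed in dividing cells, had the smallest difference among the MXD genes when each was taken by its brightest probe set. Its brightest probe set had 1083, 924 and 962 intensity units in the arrays labelled Runx1-KO, against 998, 1116 and 1031 in Control. The values interleaved, and the difference was -0.08 ± 0.17 (limma adjusted p = 0.872), with a 95% confidence interval from 0.704-fold to 1.26-fold. That interval bounds the change this probe set could hide and does not show that there was none. With 1 array left out the difference lay between -0.15 (without Runx1-KO 1) and -0.04 (without Runx1-KO 2). Its other 2 probe sets were dim, at 12.1 to 37.0, and gave 0.01 and -0.29. The ranking depended on the probe sets and arrays used. With all probe sets averaged Mxd3 gave -0.12 and Mxd4 0.0038, and without Control 1 they gave -0.12 and 0.08.

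Mnt, a broadly expressed repressor that holds MYC in check in many cell types, had 691, 836 and 816 intensity units in the arrays labelled Runx1-KO, against 629, 779.6 and 711 in Control. The groups overlapped, and the log2 difference was 0.15 ± 0.19 (limma adjusted p = 0.789, 95% confidence interval -0.31 to 0.60). It was 0.064 without Control 1 and 0.23 without Runx1-KO 1. Mlx, the partner of the glucose-sensing proteins, stood at 131, 153 and 193 in the arrays labelled Runx1-KO, against 156, 138 and 135 in Control. Its 2 probe sets pointed in opposite directions, at 0.14 ± 0.23 and -0.25 ± 0.28 in the fit over all probe sets, and the groups overlapped on both. The brighter one gave -0.01 without Runx1-KO 3 and 0.27 without Runx1-KO 1.

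Mga encodes the largest protein of the network, which carries a T-box DNA-binding domain beside its helix-loop-helix domain. By its brightest probe set it was slightly lower in every array labelled Runx1-KO than in any Control array. The brightest of its 5 probe sets had 355, 308 and 352 intensity units in the arrays labelled Runx1-KO, against 375, 390.3 and 359 in Control. The groups did not overlap, but the gap between the nearest arrays was narrow, and the log2 difference was -0.15 ± 0.17 (limma adjusted p = 0.762). It was -0.083 without Runx1-KO 2 and -0.28 with all 5 probe sets averaged. Probe set 1442356_at had 14.9, 7.45 and 16.95 in the arrays labelled Runx1-KO, all below background, against 19.0, 33.1 and 30.0 in Control, all above it. It is therefore given as a bound, at least 1.45-fold higher in Control (limma adjusted p = 0.384), taking the lowest signal above background of each array labelled Runx1-KO, 18.4 on average, for the dim side. The 3 Mga probe sets above background on all 6 arrays had differences of -0.15, -0.26 and -0.37, and the fifth was below background throughout. On those with -0.26 and -0.37, 1422646_at and 1431232_a_at, the groups overlapped.

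**Figure D3:**
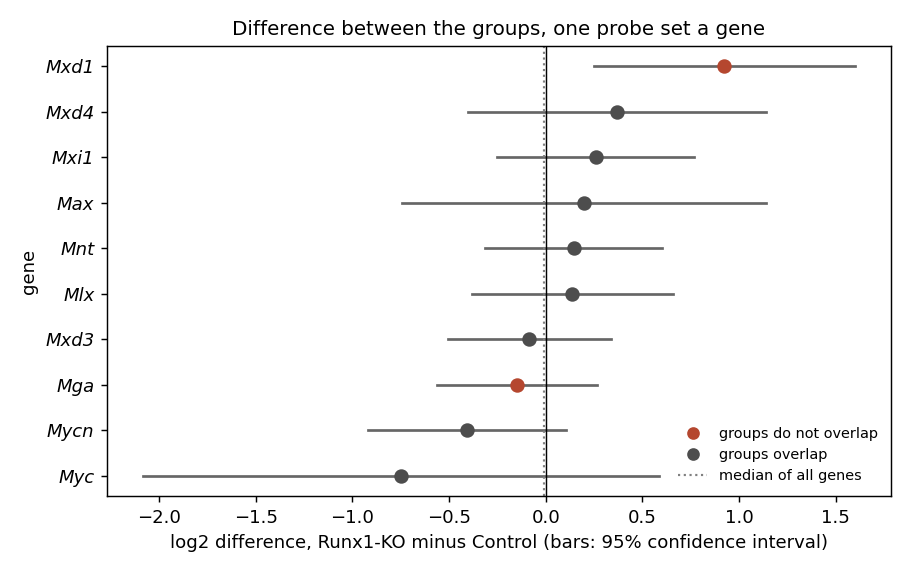
Log2 difference, Runx1-KO minus Control, for each of the 10 members (points) with its 95% confidence interval (bars), ordered by size; red points mark genes whose groups do not overlap, and the dotted line marks the median of all genes, -0.01. The interval of Mxd1 alone among the 10 lies wholly above 0, before adjustment for the number of genes, and that of Myc is the widest.

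Over all 26 probe sets, 15 had a positive and 11 a negative difference, and 0 had an adjusted p under 0.05, where 0.0687% of all probe sets did. These counts take in the 5 probe sets below background on all arrays, of which all but that of Mxd4 had a positive difference. At an unadjusted p under 0.05 there were 3, or 11.5%, 2 of Mxd1 and the Mga probe set known only as a bound, against 11.4% of all probe sets. The groups did not overlap in 5, or 19.2%, and the same share, 19.2%, was found over all 45101. Among the non-overlapping ones was Mycn probe set 1425922_a_at, which was below background on every array, at 3.30 to 9.43. Among probe sets above background on all 6 arrays, the 3 of Mxd1 and the 2 of Mxi1 had positive differences, the 3 of Mga negative ones, and those of Mxd4 and Mlx lay on both sides of 0.

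**Figure D4:**
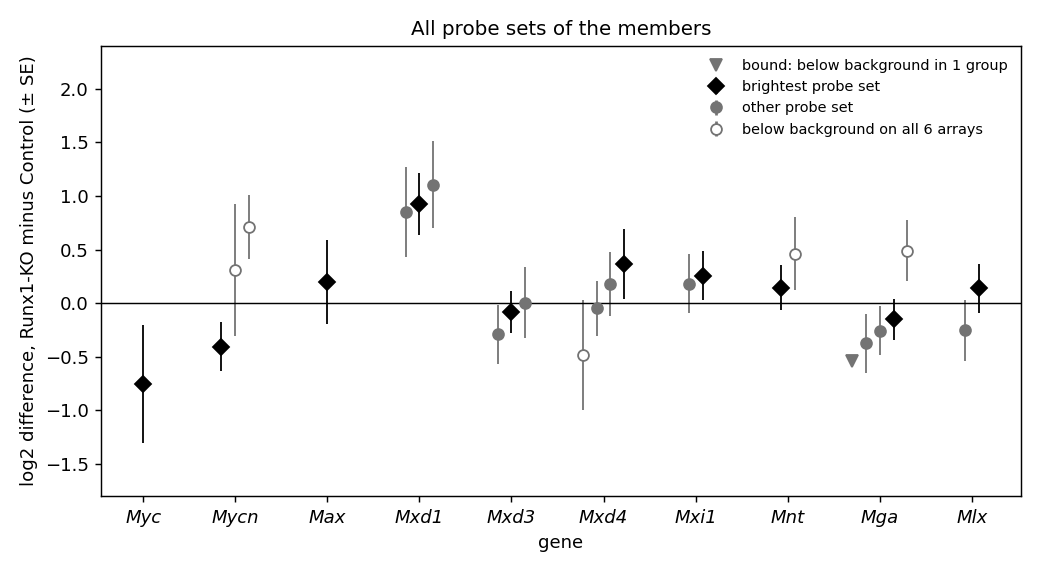
Log2 difference, Runx1-KO minus Control, with its SE for each of the 26 probe sets, grouped by gene along the horizontal axis; diamonds are the brightest probe set of a gene, circles the others, open circles those below background on all 6 arrays, and the triangle, with no SE, a bound for the Mga probe set that was below background in every array labelled Runx1-KO. The 3 Mxd1 probe sets lie between 0.85 and 1.10, and the 3 Mga probe sets above background on all arrays lie between -0.37 and -0.15.

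Among the members the median spread within a group was smaller than over all genes. The SD of the log2 level was larger among arrays labelled Runx1-KO than among Control for 6 of 10 members and for 62.4% of all genes. Its median over the members was 0.27 among those labelled Runx1-KO and 0.14 among Control, against 0.38 and 0.28 over all genes. All 10 member probe sets used here were above background on every array, while 57.4% to 64.7% of all genes were so on a given array. The comparison thus mixes in dim genes, and genes of like intensity were not compared. Runx1-KO 2 held the highest value of the 6 arrays for Max, Mxd1, Mxi1 and Mnt and the lowest for Myc, Mxd3 and Mga, which makes it an extreme for 7 of the 10 members. For comparison, it was the highest array for 21.5% of all genes and the lowest for 23.9%.

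Beyond the 10 members, 11 lists of genes that regulate, assist or answer to the network held 189 measured genes, of which 0 passed over all genes (limma), 20, or 10.6%, had an unadjusted p under 0.05 (5 with a positive and 15 with a negative difference), against 12.6% of all genes, and 47, or 24.9%, had groups that did not overlap, against 20.9% of all genes. List medians lay between -0.14 and 0.16, and with 1 array left out 6 of the 11 changed sign. The lists were chosen with earlier results of these data known, and no test was made of a list as a whole.

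**Figure D5:**
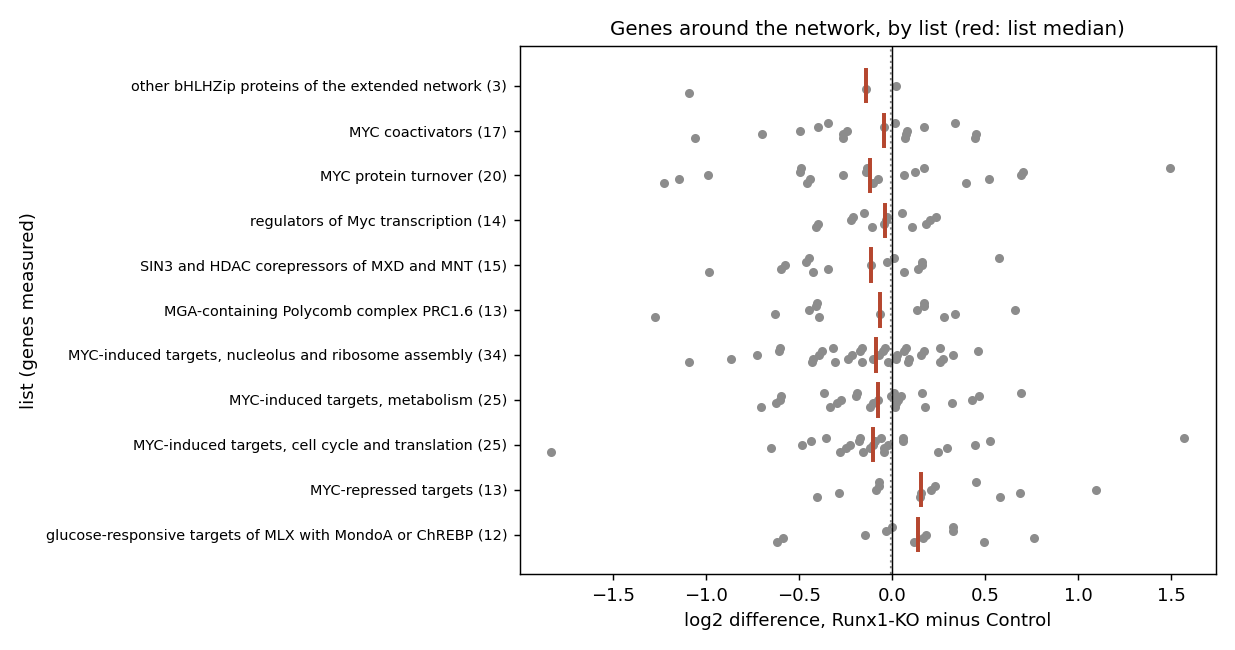
Log2 difference, Runx1-KO minus Control, of each measured gene (grey points) in the 11 lists around the network, with the list median (red bar); the solid line is 0 and the dotted line the median of all genes, and the number of genes measured stands beside each name. All medians lie within 0.16 of 0, and those of MYC-repressed targets and of MLX targets lie above it.

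Among the factors that MYC works with, 0 of 17 measured coactivators passed, with 8 higher and 9 lower. Their median of -0.04 became -0.22 without Runx1-KO 1 and 0.03 without Control 1. Ruvbl1, an ATPase of chromatin remodelling and acetylation complexes, had 156, 121 and 122 intensity units in the arrays labelled Runx1-KO, against 248, 299.7 and 281 in Control, a log2 difference of -1.06 ± 0.20 (limma adjusted p = 0.178). Smarcb1, a core subunit of SWI/SNF remodellers that binds MYC, stood at 260.1, 260.3 and 245 in the arrays labelled Runx1-KO, against 419, 431 and 394 in Control, a difference of -0.70 ± 0.17. Both were lower in every array labelled Runx1-KO than in any Control array. Smarca4, the ATPase of the same remodeller, which acts at the Myc enhancer of mouse leukemia cells, differed by -0.40 ± 0.17, also without overlap.

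Of 14 measured regulators of Myc transcription 0 passed, with a median of -0.04 that became -0.088 without Runx1-KO 3 and 0.0085 without Runx1-KO 2. After Smarca4 the lowest p belonged to E2f1, at -0.41 ± 0.24, and to Myb, a leukemia transcription factor that sustains Myc, at -0.22 ± 0.20, and the groups overlapped for both. Of 20 measured genes of MYC protein turnover 0 passed, with a median of -0.12 that became 0.0052 without Runx1-KO 1. The groups did not overlap in 7, or 35%, against 20.9% of all genes, 3 higher and 4 lower. An unadjusted p under 0.05 (limma) was found for 4, or 20%, against 12.6% of all genes, 2 higher and 2 lower. The polo kinase gene Plk1 stood at 24.3, 11.8 and 24.7 in the arrays labelled Runx1-KO, of which Runx1-KO 2 was below background, against 48.1, 38.9 and 40.7 in Control. It was named only because Control lay above background, so its direction is partly set by that choice. Btrc, a ubiquitin ligase subunit, differed by -1.23 ± 0.39. Usp22, a deubiquitinase of the SAGA complex, had 389, 598 and 341 intensity units in the arrays labelled Runx1-KO, against 251, 299.0 and 250.1 in Control, a difference of 0.69 ± 0.26 (limma adjusted p = 0.365). In all 3 genes the groups did not overlap.

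On the repressive side, 0 of 15 measured SIN3 and histone deacetylase genes passed, with 6 higher and 9 lower. Their median of -0.11 became -0.17 without Runx1-KO 3 and -0.028 without Runx1-KO 2. The groups did not overlap in 5, or 33.3%, all with a negative difference, against 11.7% of all genes on that side, and 1, or 6.67%, had an unadjusted p under 0.05, against 12.6% of all genes. Hdac2, a deacetylase of the SIN3 complex, stood at 1215, 683 and 955 in Runx1-KO 1, 2 and 3, against 1449, 1382 and 1364 in Control, a difference of -0.59 ± 0.25 (limma adjusted p = 0.404). Brms1, a SIN3 subunit gene, differed by 0.58 ± 0.28, with overlap. Its relative Brms1l stood at 21.6, 10.6 and 20.6 in the arrays labelled Runx1-KO, of which Runx1-KO 2 was below background, against 46.2, 29.2 and 26.9 in Control, and it too was named only through Control. Of 13 measured genes of the MGA-containing complex PRC1.6, 0 passed and the median of -0.07 became -0.12 without Runx1-KO 1 and 0.018 without Runx1-KO 2. E2f6, a repressor of the E2F family and a subunit of that complex, had 126, 77.5 and 83.7 intensity units in the arrays labelled Runx1-KO, against 233, 211 and 236 in Control, a difference of -1.27 ± 0.24 (adjusted p = 0.179). The Polycomb-associated gene Yaf2 differed by 0.66 ± 0.22, and Ehmt2, a histone methyltransferase of the complex, by -0.41 ± 0.23. The groups overlapped for Ehmt2 and not for E2f6 or Yaf2.

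Targets that MYC is known to induce were held in 3 lists. Of 34 measured genes of the nucleolus and ribosome assembly 0 passed, 13 were higher and 21 lower, and the median of -0.09 became -0.15 without Control 1 and -0.035 without Runx1-KO 2. The groups did not overlap in 11, or 32.4%, against 20.9% of all genes, 2 higher and 9 lower. An unadjusted p under 0.05 (limma) was found for 5, or 14.7%, all lower, against 12.6% of all genes and 7.01% on that side. Dkc1, the pseudouridine synthase of ribosomal RNA and telomerase, had 423, 389 and 420.0 intensity units in the arrays labelled Runx1-KO, against 757, 735 and 751 in Control. The 2 groups were far apart next to their spread, and the difference was -0.87 ± 0.16 (limma adjusted p = 0.179). It passed with an offset of 16 added before the log (adjusted p = 0.0329) and with an intensity trend and robust fitting (adjusted p = 0.0281). Dkc1 is X-linked in mammals, and sex differed between the groups. Farsa, a subunit of phenylalanyl-tRNA synthetase, differed by -1.09 ± 0.24 and the ribosome assembly factor gene Nop16 by -0.73 ± 0.23, both without overlap.

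Of 25 measured metabolic targets 0 passed, with 11 higher and 14 lower. Their median of -0.07 became -0.15 without Runx1-KO 3, 0.017 without Runx1-KO 2 and 0.029 without Control 1. The groups did not overlap in 11 of them, or 44%, against 20.9% of all genes, 3 higher and 8 lower, while 2, or 8%, had an unadjusted p under 0.05, against 12.6% of all genes. Dctpp1, a nucleotide pyrophosphatase, differed by -0.63 ± 0.19 and Prps2, an enzyme of nucleotide synthesis, by -0.60 ± 0.24, while Slc7a5, a subunit of an amino acid transporter, differed by 0.46 ± 0.20, all 3 without overlap. Odc1, the polyamine enzyme often used as a readout of MYC and named here after its values were seen, stood at 4377, 4351 and 4129 in the arrays labelled Runx1-KO, against 3470.0, 3386 and 3420.5 in Control. Its difference of 0.32 ± 0.16 (limma adjusted p = 0.465) ran opposite to that of Myc. Cad and Srm, of the same list and also named after their values were seen, had differences in the direction of Myc. These were -0.60 ± 0.27 for Cad and -0.36 ± 0.17 for Srm (limma adjusted p = 0.424 and 0.433), without overlap, as for Odc1.

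Of 25 measured targets in the cell cycle and translation 0 passed, with 7 higher and 18 lower, and the median of -0.10 became -0.0071 without Runx1-KO 2. Id2, an inhibitor of basic helix-loop-helix factors, had intensities of 449, 1178 and 616 in Runx1-KO 1, 2 and 3, against 366, 150.5 and 227 in Control 1, 2 and 3. As with Mxd1, Runx1-KO 2 was the highest array and Control 1 the highest Control array, and the difference was 1.57 ± 0.47 (limma adjusted p = 0.296). Ccnd1, which encodes cyclin D1, stood at 65.4, 88.5 and 64.8 in the arrays labelled Runx1-KO, against 453, 93.4 and 397 in Control, a difference of -1.83 ± 0.62 in which Control 2 lay close to the other group. Prmt1, an arginine methyltransferase, differed by -0.48 ± 0.19, without overlap.

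Genes that MYC represses had a median of 0.16, with 8 of 13 measured members higher, 5 lower and 0 past the threshold. The median became 0.030 without Control 2 and 0.26 without Runx1-KO 3. No member had groups that did not overlap. The stress gene Gadd45a differed by 0.68 ± 0.36, the stress factor gene Ddit3 by 0.58 ± 0.33 and the antiproliferative gene Btg1 by 0.23 ± 0.18. Cdkn1a, the cell cycle inhibitor p21, had intensities of 410.0, 1253 and 799 in Runx1-KO 1, 2 and 3, against 1257, 704 and 1071 in Control, so both groups spanned a wide range. Of 12 measured glucose-responsive targets of MLX with its partners 0 passed and the median of 0.14 became 0.028 without Control 2 and 0.27 without Control 3. Txnip, the best known of them and a brake on glucose uptake, stood at 1064, 439.6 and 662 in the arrays labelled Runx1-KO, against 751, 1150.4 and 1303 in Control, a difference of -0.62 ± 0.39. Its groups overlapped, as did those of Thrsp at 0.32 ± 0.21 and Acly at 0.33 ± 0.22, which belong to lipid synthesis. Mlxip, which encodes MondoA, differed by 0.02 ± 0.23, and Mlxipl, which encodes ChREBP, was below background on all 6 arrays.

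The genes whose log2 level followed a member most closely were sought among 3552 genes that were above background on all 6 arrays and spanned at least 1 log2 unit. For Myc these were Chchd4 (Pearson r = 0.996), Dgkq (0.995), Gpr65 (0.992), Nmnat3 (0.991) and Prps1 (0.990), over 6 arrays. All 5 had their lowest value in Runx1-KO 2, as Myc did, which follows largely from their choice by correlation with Myc. For Mxd1 they were Anxa1, Sgk1, Tirap, Hypk and Gchfr, with r of 0.971 to 0.989. Anxa1, an anti-inflammatory protein of neutrophils, had 1781, 1860.4 and 1357 intensity units in the arrays labelled Runx1-KO, against 1292, 851 and 949 in Control. With 6 arrays and 3552 genes, correlations of this size are a description and carry no p.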

How the data were processed

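RNA of 6 leukemias was extracted with an RNeasy kit and labelled with biotin on fragmented cDNA, per the labels' protocols. The authors deposited 1 linear intensity per probe set and array, floored at 1 (4575 values at it, 1 value under it). Their summarisation and normalization are not stated in any source used here. Gene symbols were those of the platform annotation. Of 45101 probe sets, 34958 had 1 symbol, 932 several and 9211 none (64 of these are controls), and a RefSeq table matched 34754 by Entrez number and changed 0. Where a gene had several probe sets (9012 genes), its brightest by mean log2 level stood for it, which left 18194 genes.

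Log2 intensities were fitted with limma (version 3.58.1, lmFit then eBayes, in R 4.3.3), with no covariate and no filter. P-values were adjusted over all genes, or over all probe sets for a single probe set. Python 3.11.15 made the tables and figures, and the code was tested on simulated data. A probe set counted as above background on an array when it exceeded all 27 spike-in probe sets that had no target there. The members, lists and background limit were chosen with earlier results of these data known. From each list the 3 genes of lowest p were named among those above background on all arrays of at least 1 group. Fbxw7, Odc1, Cad, Srm, Cdkn1a, Mlxip and Mlxipl were picked after their values were seen. List genes with no row in the gene table (14 of 203) were not analysed here. Alternatives were quantile normalization, median centring, an offset of 16, 2 filters on dim genes, averaged probe sets, a fit with an intensity trend and robust variances, array weights, ordinary statistics, the replicate number as a block, a threshold of 0.1, and leaving out each array or both arrays numbered 1.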

Additional observations from a re-analysis of the deposited data

How the results depend on the processing

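The count past the threshold was 0 of 10 members under each alternative run, and 0 of 26 member probe sets, or 0 of the 19 and 0 of the 21 that the 2 filters on dim genes left. The alternatives re-estimated 118 member differences, of which 113 kept their direction, and left 52 as they were by construction. The 5 in another direction were Mycn (0.21) and Mlx (-0.06) with the mean of all probe sets, Max without Runx1-KO 2 (-0.08), Mlx without Runx1-KO 3 (-0.01) and Mxd4 without both arrays numbered 1 (-0.06). Mxd1 ran from 0.78 to 1.17 with adjusted p from 0.134 to 0.548, and Myc from -1.27 to -0.18. The median over the members was 0.20 with quantile normalization, 0.26 with array weights, 0.045 without both arrays numbered 1, and 0.016 (without Runx1-KO 3) to 0.23 (without Runx1-KO 1) with 1 array left out. The count of pathway genes past the threshold was 1 with the offset and 1 with the trend and robust fitting, Dkc1 in both. Of the list medians, that of coactivators became 0.026 with quantile normalization, that of metabolic targets 0.040 with array weights and that of MYC-repressed targets 0.020 with the mean of all probe sets. The replicate number as a block left 0 members, with a lowest adjusted p of 0.432 for Mxd1. Same-numbered arrays did not deviate together (r = -0.01, -0.09 and 0.04), so the labels' numbers were not taken as pairs. Over all genes the count past the threshold ran from 0 with the block to 104 with the trend and robust fitting, against 16, and the split of higher and lower calls was 6 to 10, or 39 to 65 with that fit. Levels near or below background limit what can be said of the dimmest probe sets of Mycn, Mxd3, Mxd4, Mnt and Mga. The brightest probe set of each of these genes was above background on all 6 arrays.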
